A study of Brassica napus with 12 samples.

Results

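The drought response of flowers of the low-phenolic rapeseed (Brassica napus) genotype G59 was described from 6 of the 12 RNA-seq libraries of the series. These were the 3 libraries labelled low-phenolics, droughted and the 3 labelled low-phenolics, control, and all 998 listed genes were used. Plants of both groups grew in greenhouse pots at 26 to 28 °C, in 12 h days and 12 h nights, until the first flowers were visible. From then on, control pots were held at a soil relative water content of 30% with sterile water, and drought pots at 10% with 20% PEG6000, a polymer that binds water. G59 is a single genotype, so the values describe that genotype under these 2 regimes. The labels do not say whether the 3 libraries of a group came from separate plants or pots, and p-values below therefore measure the spread between libraries, which may be technical. The deposited unit was FPKM, fragments per kilobase of exon, scaled to the mapped fragments of the library. In bulk flowers, fewer cells of a type and less RNA per cell cannot be told apart.

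Water deficit at flowering is known to act through abscisic acid, which induces protective proteins such as dehydrins, and through transcription factors of the NAC and other families. Phenolic compounds are made from phenylalanine, first by phenylalanine ammonia-lyase (PAL) and cinnamate 4-hydroxylase (C4H). From there, chalcone isomerase (CHI), flavonoid 3'-monooxygenase and flavonol synthase lead to flavonols, and cinnamoyl-CoA reductase (CCR) leads to lignin. Flavonols are then linked to sugars by glycosyltransferases. Of the 998 listed genes, 14 carry a name from the study's candidate genes or from RefSeq, and the others are known by identifier only. No gene that marks a floral organ was among the named ones, so the tissue label could not be checked against markers.

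The listed genes are not a sample of the G59 transcriptome. In replicate 1 of the control no gene reached 3 FPKM (highest 2.99 FPKM), while 75 genes did in replicate 2 and 56 in replicate 3. No gene had a ratio of the drought mean to the control mean between 0.629 and 1.562. The 3 drought libraries lay wholly above or below the 3 control libraries in 978 of the 998 genes (98.0%), 781 above (78.3%) and 197 below (19.7%). Shares of genes called in this list thus do not estimate shares of the genome, and tests on genes listed for this contrast are not independent evidence of a response.

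The match of G59 values to identifiers is uncertain. Across the 998 rows, the means of the G59 control had a rank correlation of -0.028 with those of G67, the high-phenolic genotype of the series, and the drought means one of 0.009. Rows with equal values did not coincide between the genotypes either. In G59, 36 rows fell into 16 sets of 2 or 3 rows with the same value in all 6 libraries, as reads shared by near-identical genes can give. In G67, 38 rows formed 19 such pairs, and 0 of the 24 pairs of rows equal in G59 were equal in G67. The NCBI numbers of the G67 pairs lay a median of 4 apart, and those of the G59 pairs a median of 186 apart. Many equal rows of G59 were close in the list all the same. Of its 24 pairs, 10 were neighbouring rows and 13 lay within 10 rows, beside 11 and 15 of the 19 pairs in G67. NCBI numbers differed by at most 10 in 8 of 21 pairs in G59 and in 13 of 19 in G67. Rows equal in G59 differed in their G67 mean by a median factor of 6.10 and by up to 369. Identifiers and names are therefore given below as the G59 files list them, and each stands for a row of values whose gene is not certain.

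The level of the listed genes was higher under drought in every library. The summed FPKM was 883, 1059 and 917 in the control libraries and 4928, 5267 and 3439 in the drought libraries, so the groups did not overlap. The ratio of the means was 4.77 ± 1.02 (SD over the 3 drought libraries, each divided by the control mean), with an exact two-sided permutation p of 0.1, the smallest that 3 against 3 libraries allow. A few genes carried much of this sum, and without the 20 genes with the highest mean the ratio was 2.88. The median gene stood at 0.57, 0.57 and 0.49 FPKM in control flowers and at 2.17, 2.15 and 1.28 FPKM in drought flowers (exact permutation p = 0.1). The number of genes listed at 0 was 277, 283 and 261 under control and 54, 49 and 56 under drought. At least 10 FPKM was reached by 0, 3 and 0 genes in the control libraries and by 57, 53 and 33 genes in the drought libraries. The 0 of control replicate 1 follows from the list, which holds no gene of 3 FPKM or more in that library. This limit bears on the sum and median of that library too, and no such limit was seen in the drought libraries. Since FPKM are relative to the library and only part of each library is listed, these sums are not a measure of depth.

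**Figure D1:**
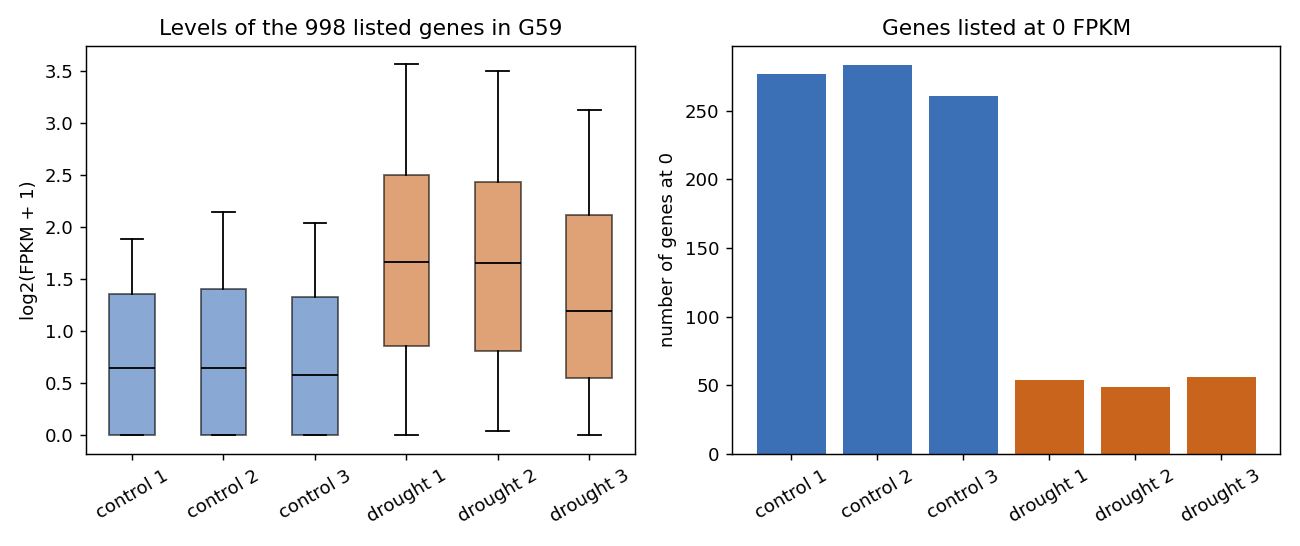
Levels of the 998 listed genes in the 6 G59 libraries. Left, box plots of log2(FPKM + 1), with the box from the lower to the upper quartile, the line at the median and whiskers at the 5th and 95th percentiles. Right, the number of genes listed at 0 FPKM, 261 to 283 in the control libraries and 49 to 56 in the drought libraries.

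Among the 998 genes, 542 (54.3%) passed the thresholds of the study in limma on log2(FPKM + 1), namely an adjusted p no higher than 0.05 with a log2 fold change (log2FC) of 1 or more in either direction. Of these, 474 (47.5%) were higher and 68 (6.81%) were lower under drought. The adjusted p alone was at most 0.05 for 962 genes (96.4%), and 420 of them missed the fold threshold. On this scale a gene that rose to a mean below 1 FPKM could not reach the fold threshold. It follows from the scale that none of the 135 genes higher under drought with a mean below 1 FPKM was called. Their largest log2FC was 0.96. Of the 369 higher genes with a drought mean of at least 3 FPKM, 289 (78.3%) were called. The median log2FC over all genes was 0.98.

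The direction of these calls depended on the scale of the libraries. Median-ratio scaling lowered the median log2FC by 0.70, to 0.28, and left 153 genes called as higher and 174 as lower. Its factors, 0.567 to 0.630 for control and 1.43 to 1.89 for drought libraries, came from the 609 listed genes above 0 in all 6 libraries. They are set so that the typical gene of these does not change, so this shift too is largely brought about by the method. A call lost or a sign turned under it shows dependence on the scale only. After quantile normalization the median was 0.13, with 122 genes higher and 186 lower, an outcome that the method brings about in large part because it gives each library the same distribution. Of the 542 calls, 221 were kept in the same direction with median-ratio scaling and 23 had the opposite sign. Changes in FPKM below are thus relative to the mapped fragments of each library. After quantile normalization 187 of the 542 were kept in the same direction. Among the 40 genes named here, 25 were called, beside 54.3% of all listed genes, and 20 of these were called in the same direction under both scalings. Many of the 40 were taken for the largest changes among called genes or for extreme levels, so nothing is read from these counts.

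**Figure D2:**
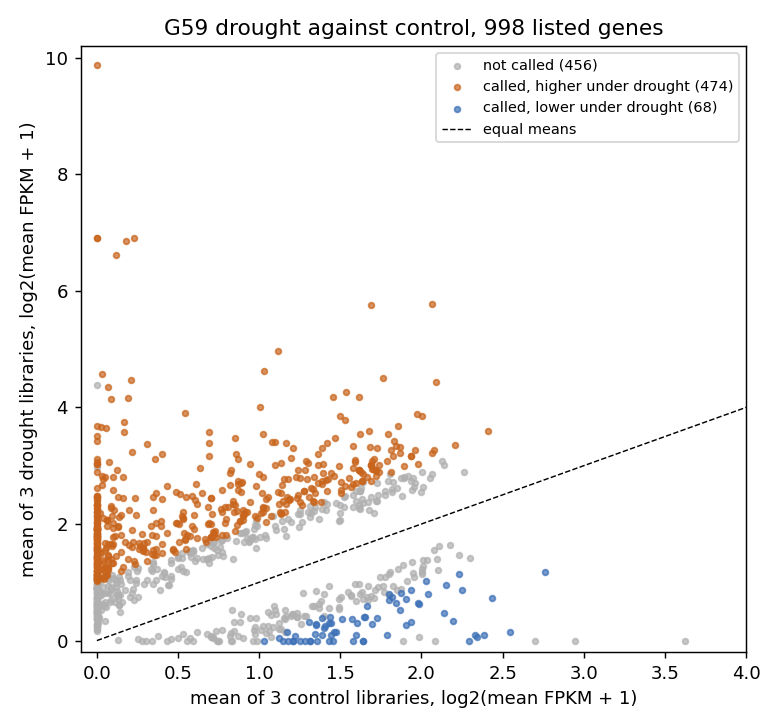
Mean of the 3 drought libraries against the mean of the 3 control libraries for the 998 listed genes of G59, both as log2(mean FPKM + 1), with colours for the 474 genes called as higher, the 68 called as lower and the others. Control means stay low, and most points lie above the dashed line of equal means, some of them at a control mean of 0.

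Of the named genes of phenolic synthesis, those for CHI, FLS3, CCR1 and UGT89B1 were called as higher under drought and that for C4H as lower. Of 8 such rows, namely the 6 candidate genes of the study that are listed and 2 more named in RefSeq, 4 were called as higher, 1 as lower and 3 were not called. Their median log2FC was 1.15, beside 0.98 over all listed genes and a share called of 54.3%. The study chose the 6 candidate genes with the help of its own libraries. The other 2 were added here after their names and values had been seen, so this count is not independent evidence. All levels were low, with a highest value of 12.7 FPKM.

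At the entry of the pathway, PAL1 (LOC106388514) was listed at 0 in all control flowers and at 1.36, 1.42 and 0.39 FPKM in drought flowers. All drought values lay above the control, with replicate 3 the lowest. Its log2FC of 0.996 (standard error, SE, 0.23, limma adjusted p = 0.00685) fell just short of the threshold of 1, and PAL1 was called without drought replicate 3 (1.26). The row of C4H (LOC106348398), the enzyme of the next step, went the other way, from 0.68, 2.16 and 1.85 FPKM in control flowers to 0 in all 3 drought libraries. It was called as lower (log2FC -1.31, SE 0.25, limma adjusted p = 0.0034).

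In the flavonoid branch, CHI (LOC106412109) had 1.33, 1.45 and 0.73 FPKM in control flowers and 5.81, 5.70 and 2.95 FPKM in drought flowers. The mean was 1.17 ± 0.39 FPKM in control flowers and 4.82 ± 1.62 FPKM in drought flowers (SD, n = 3), a ratio of 4.12, and the log2FC was 1.40 (SE 0.26, limma adjusted p = 0.00328). FLS3 (LOC106382906), a flavonol synthase, had 0.20, 0.35 and 0.31 FPKM and then 2.24, 2.87 and 0.84 FPKM, a ratio of 6.92 and a log2FC of 1.15 (SE 0.28, limma adjusted p = 0.00784). UGT89B1 (LOC106430142), a glycosyltransferase, was listed at 0 in control flowers and at 5.35, 4.80 and 1.15 FPKM in drought flowers, with the largest log2FC of the 8 rows, 2.10 (SE 0.41, limma adjusted p = 0.00354). In each of these 3 genes drought replicate 3 was the lowest drought library and still lay above every control library. CYP75B137 (LOC106436650), a flavonoid 3'-monooxygenase, was listed at 12.7 FPKM in drought replicate 1 and at 0 in the other 5 libraries, and it was not called (adjusted p = 0.25 in limma).

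In the lignin branch, CCR1 (LOC106367237) had 0.04, 0.04 and 0.02 FPKM in control flowers and 1.86, 1.61 and 0.60 FPKM in drought flowers. Its ratio of 40.7 rested on a control mean of 0.033 FPKM, and its log2FC was 1.15 (SE 0.23, limma adjusted p = 0.00412). BNF5H1 (LOC106350027), a ferulate 5-hydroxylase, had 2.11, 2.09 and 1.42 FPKM and then 5.45, 3.75 and 4.38 FPKM. The groups did not overlap, and the log2FC of 0.94 (SE 0.18, limma adjusted p = 0.00337) missed the threshold. With median-ratio scaling CHI, FLS3 and CCR1 kept a positive log2FC (0.38, 0.50 and 0.73) and were not called, BNF5H1 turned to -0.15, and UGT89B1 and C4H were called as before. FLS3 was not called either without drought replicate 2 (0.93), nor CCR1 without drought replicate 1 (0.98).

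**Figure D3:**
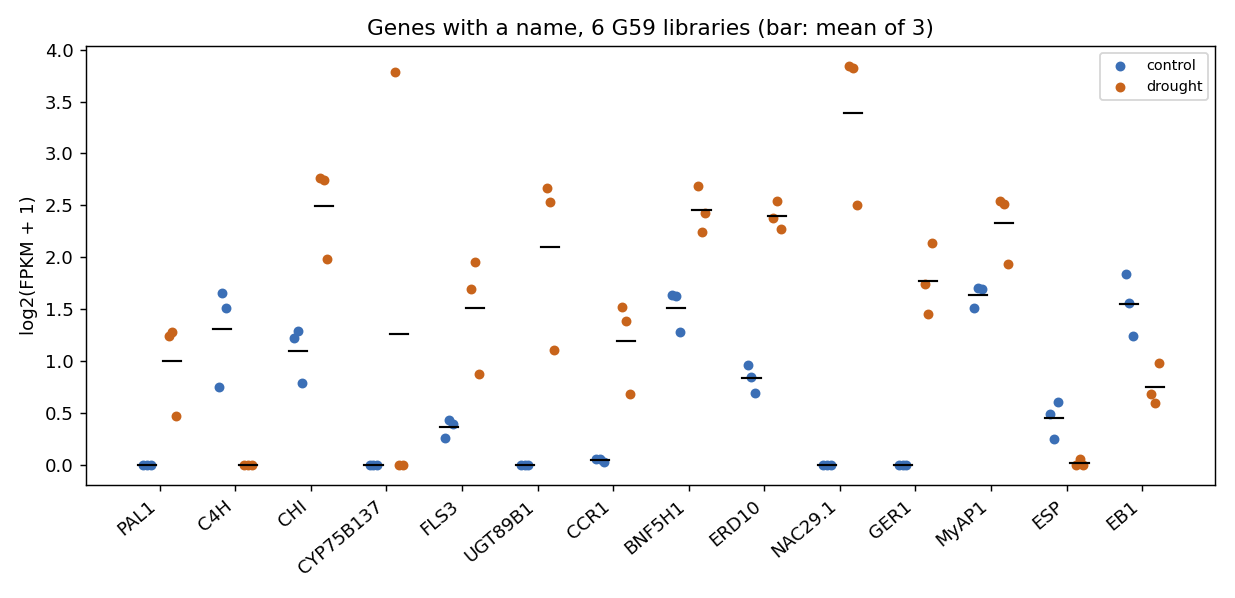
Values of the 14 named genes in the 6 G59 libraries, as log2(FPKM + 1). Points are libraries of the control and drought groups, and bars are the means of 3. C4H, ESP and EB1 are lower in the drought libraries, CYP75B137 is above 0 in 1 drought library only, and the other 10 are higher in every drought library than in every control library.

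Outside phenolic synthesis, 6 rows carry a name in RefSeq, of which 3 were called, all as higher, a share near the 54.3% of all listed genes called and the 47.5% called as higher. ERD10 (LOC106347282), a dehydrin, had 0.95, 0.80 and 0.62 FPKM in control flowers and 4.19, 4.81 and 3.83 FPKM in drought flowers. Its drought libraries were even (coefficient of variation, CV, 11.6%), the ratio of the means was 5.41, and the log2FC was 1.56 (SE 0.14, limma adjusted p = 0.000453). With median-ratio scaling the log2FC was 0.62 and ERD10 was not called. GER1 (LOC106354228) was listed at 0 under control and at 2.34, 1.73 and 3.40 FPKM in drought flowers, replicate 3 being the highest here (log2FC 1.77, SE 0.19, limma adjusted p = 0.000814). The third, NAC29.1 (LOC106354073), of the NAC transcription factor family, was listed at 0 under control and at 13.4, 13.1 and 4.67 FPKM in drought flowers (log2FC 3.39, SE 0.37, limma adjusted p = 0.000801). UGT89B1, GER1 and NAC29.1 were called under both scalings.

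Both named rows of the glucosinolate system, the defence system of Brassica plants in which myrosinase releases volatile products, missed the fold threshold. MyAP1 (LOC106348442), a myrosinase-associated protein, had 1.85, 2.26 and 2.23 FPKM in control flowers and 4.83, 4.72 and 2.82 FPKM in drought flowers, a log2FC of 0.70 (SE 0.20) that became -0.41 with median-ratio scaling. ESP (LOC106348445) is the epithiospecifier protein, which directs the release toward nitriles. It had 0.40, 0.19 and 0.52 FPKM in control flowers and was listed at 0, 0.04 and 0 FPKM in drought flowers. The groups did not overlap, the ratio of the means was 0.036, and the log2FC was -0.43 (SE 0.14, limma adjusted p = 0.0234). From control values below 1 FPKM, even a fall to 0 could not reach the fold threshold on this scale. With a pseudocount of 0.1 in place of 1, ESP was called as lower. EB1 (LOC106347607), which binds the growing ends of microtubules, had 2.58, 1.94 and 1.37 FPKM and then 0.60, 0.51 and 0.98 FPKM. Its log2FC of -0.79 (SE 0.20, limma adjusted p = 0.00864) missed the threshold, and with median-ratio scaling it was -1.55 and EB1 was called as lower.

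In all 3 control libraries, 212 of the 998 genes were listed at 0. All of them had a value above 0 under drought, 204 in all 3 libraries and 8 in 1 library only. As these genes were chosen by their control values, the levels they reached are a description. Most stayed low, with drought means of 0.117 to 937 FPKM and a median of 1.21 FPKM. The mean was at least 0.5 FPKM for 180 of the 212 genes (84.9%), at least 1 FPKM for 129 (60.8%), at least 3 FPKM for 37 (17.5%) and at least 10 FPKM for 6 (2.83%). In every single drought library, at least 1 FPKM was seen for 61 of them. Of the 212 genes, 114 passed the thresholds in limma, a share of 53.8% beside 54.3% of all listed genes. With a pseudocount of 0.1 in place of 1, 204 of the 212 were called, and with median-ratio scaling 71 were.

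Replicate 3 of the drought group was the low library for these genes. Their median was 1.44 FPKM in replicate 1, 1.50 FPKM in replicate 2 and 0.59 FPKM in replicate 3. In the 204 genes above 0 in all 3 drought libraries, replicate 3 stood at a median of 0.373 of the mean of the other two. The same ratio had a median of 0.698 in the 581 genes above 0 in both groups and higher under drought, and of 0.818 in 141 genes above 0 in both and lower. Without replicate 3, 135 of the 212 genes were called in place of 114. What part the library itself has in this was not tested.

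**Figure D4:**
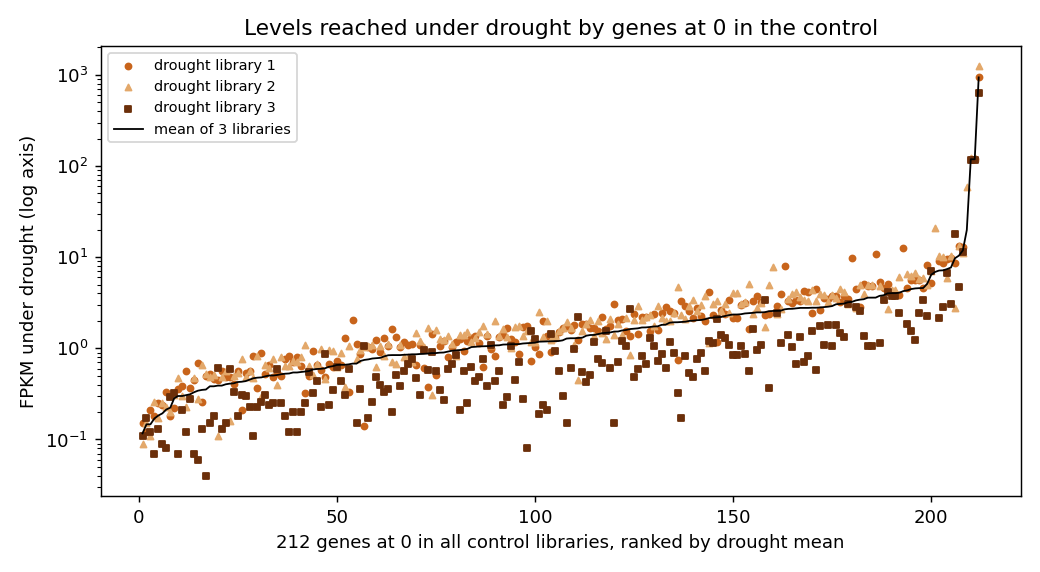
FPKM under drought (log axis) of the 212 genes listed at 0 in all 3 control libraries, ranked by their drought mean. Symbols are the 3 drought libraries, the line is their mean, and values of 0 are not drawn. Most genes lie near 1 FPKM, replicate 3 is mostly the lowest, and 3 genes lie above 100 FPKM.

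The highest level was that of LOC106347043, which was listed at 0 in all control flowers and at 941, 1238 and 633 FPKM in drought flowers. No fold is given against a control at 0. Its log2FC on the log2(FPKM + 1) scale was 9.82 (SE 0.25, limma adjusted p = 1.68e-06). LOC106349195 and LOC106349147 held the same values, 0 in control flowers and 118, 122 and 116 FPKM in drought flowers, and are 1 of the 16 sets of equal rows. Their drought libraries differed little, with a CV of 2.73%. LOC106346730 was likewise even, at 13.0, 11.1 and 11.5 FPKM in drought flowers from 0 under control (log2FC 3.68, SE 0.13, limma adjusted p = 8.56e-06). LOC106345795, in contrast, reached 59.5 FPKM in replicate 2 and was listed at 0 in the other 5 libraries, and it was not called (adjusted p = 0.249 in limma). NAC29.1 was the sixth of these genes by mean level.

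The largest rises from a control above 0 started at very low values. LOC106352671 was listed at 0, 0 and 0.51 FPKM in control flowers and at 132, 160 and 64.2 FPKM in drought flowers. LOC106353514 had 0.07, 0.04 and 0.29 FPKM and then 142.9, 169 and 31.5 FPKM. LOC106353539 was listed at 0, 0 and 0.26 FPKM and then at 121.0, 131 and 38.4 FPKM. In each of the 3 genes the drought libraries lay far above the control libraries, with replicate 3 the lowest, and the log2FC values were 6.60, 6.36 and 6.31. The ratios of the means, 698, 858 and 1116, rested on control means of 0.087 to 0.17 FPKM. LOC106349212 rose from 0, 0 and 0.06 FPKM to 27.4, 25.2 and 15.9 FPKM, and LOC106349215 from 0, 0 and 0.14 FPKM to 20.3, 22.4 and 15.7 FPKM. Their log2FC values were 4.51 (SE 0.22) and 4.28 (SE 0.17), and limma gave adjusted p-values of 4.65e-05 and 1.57e-05.

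Rises were smaller in most genes. For the 581 genes above 0 in both groups and higher under drought, the ratio of the means ran from 1.56 to 1140 with a median of 4.49 and quartiles of 2.98 and 10.5. Their median level went from 0.70 FPKM in control flowers to 3.49 FPKM in drought flowers. Of the 581, 360 were called (62.0%), beside 54.3% of all listed genes called in either direction and 47.5% called as higher. The drought libraries lay above the control libraries in 577, beside 78.3% of all listed genes, and since the 581 were taken for their higher drought mean nothing is read from these counts. With median-ratio scaling 82 of the 581 were called as higher.

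Lower values under drought were seen in 205 genes, of which 34 were listed at 0 in all drought libraries and 171 were above 0 in both groups. In the 171, the ratio of drought to control ran from 0.0115 to 0.629 with a median of 0.244. They stood at a median of 1.78 FPKM in control flowers and 0.367 FPKM in drought flowers, and 52 of them (30.4%) were called, beside 54.3% of all listed genes called in either direction and 6.81% called as lower. They were taken for their lower drought mean, and nothing is read from this count either. With median-ratio scaling 153 of the 171 were called as lower, and after quantile normalization 160 were.

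Among the called genes with the largest falls in log2FC was LOC106346982, which had 2.43, 5.03 and 7.06 FPKM in control flowers and 0.21, 0.06 and 0.06 FPKM in drought flowers. Its log2FC was -2.31 (SE 0.31, limma adjusted p = 0.00127). LOC106346503 had 2.96, 4.76 and 4.49 FPKM in control flowers and was listed at 0, 0 and 0.14 FPKM in drought flowers. LOC106354105 went from 2.50, 4.83 and 5.37 FPKM to 0.09, 0.06 and 0.06 FPKM, and LOC106354263 from 2.62, 4.35 and 5.13 FPKM to 0, 0.20 and 0 FPKM. In these 4 genes the control and drought libraries did not overlap. That replicate 1 was their lowest control library follows from the list, which holds no gene of 3 FPKM or more in that library. LOC106346894 fell less, from 2.47, 3.85 and 4.41 FPKM to 0.24, 0.18 and 0.38 FPKM (log2FC -1.83, SE 0.20). Rows with 3 FPKM or more in replicate 1 of the control are not in the list, and this limit bears on the falls that it can hold.

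Of the 34 genes listed at 0 in all drought libraries, 16 were called (47.1%), beside 54.3% of all listed genes called in either direction and 6.81% called as lower. These genes were taken by their drought values, so nothing is read from the count. Their control means were 0.213 to 11.3 FPKM with a median of 1.31 FPKM. The highest of these means came from single libraries. LOC106347338, LOC106347035 and LOC106350560 had 33.97, 20.1 and 16.5 FPKM in replicate 2 of the control and were listed at 0 in the other 5 libraries, and none was called (adjusted p = 0.25 in limma for each). LOC106353576 had 1.28, 3.95 and 6.44 FPKM in control flowers and 0 in every drought library, a log2FC of -2.13 (SE 0.41, limma adjusted p = 0.00341). LOC106347016, another of the genes highest under control, had 2.08, 5.56 and 9.66 FPKM there and 1.11, 1.55 and 1.14 FPKM in drought flowers. It was called as lower (log2FC -1.41, SE 0.43, limma adjusted p = 0.0172), though not without control replicate 2 (adjusted p = 0.0663), drought replicate 1 (adjusted p = 0.0741) or drought replicate 3 (adjusted p = 0.0688). Without replicate 3 of the control its log2FC was -0.99, short of the threshold.

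Below 1 FPKM, replicates differed more than at 1 to 10 FPKM. Across genes, the median CV of the 3 control libraries was 44.4% for means of 0.1 to 0.5 FPKM, 30.6% for 0.5 to 1 FPKM, 23.6% for 1 to 3 FPKM and 27.9% for 3 to 10 FPKM. In the drought libraries it was 51.8%, 37.9%, 36.6% and 27.2% in the same ranges. For the 42 genes with a drought mean of at least 10 FPKM it was 40.1%. At control means of 3 to 10 FPKM, replicate 1 of the control lay below 3 FPKM in every gene because of the list. The control CV in that range is thus not replicate spread alone. Replicate 3 lay below both other drought libraries in 631 of the 998 genes, against 112 for replicate 1 and 191 for replicate 2. Over the 926 genes above 0 in all 3, it stood at a median of 0.648 of the mean of the other two, while replicate 2 stood at 0.942 of replicate 1. Rank correlations across genes were 0.888 to 0.905 among the control libraries, 0.918 between drought replicates 1 and 2, and 0.858 and 0.842 between these and replicate 3. Between control and drought libraries they were 0.123 to 0.369, the higher values being those of replicate 3. These are correlations across genes, which are not independent replicates.

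**Figure D5:**
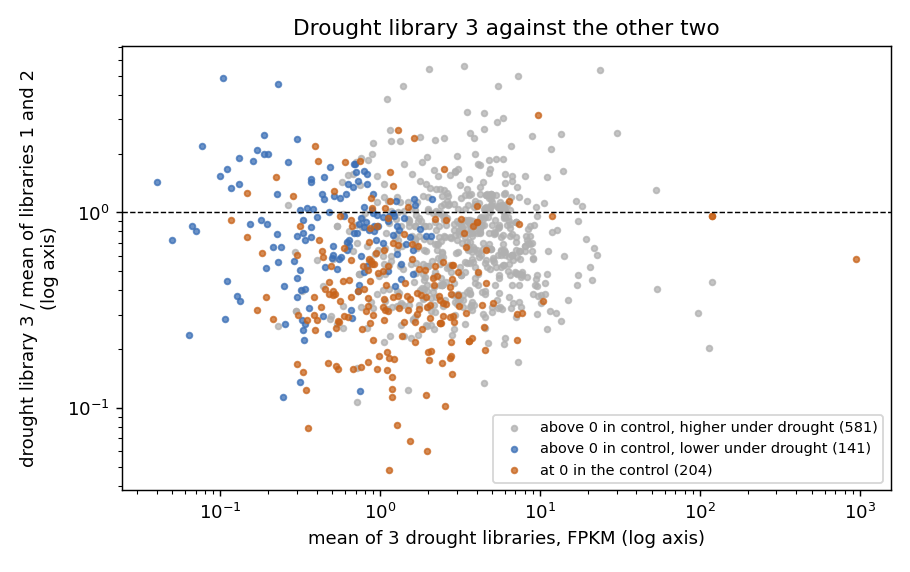
Value of drought replicate 3 divided by the mean of drought replicates 1 and 2 (log axis) against the mean of the 3 drought libraries in FPKM (log axis), for the 926 genes above 0 in all 3 drought libraries. The dashed line marks equal values. Genes at 0 in the control lie lowest, with a median of 0.373, against 0.698 and 0.818 in the genes that were above 0 in both groups.

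The 3 steadiest genes with a drought mean of at least 1 FPKM had drought means of 1.40 to 2.40 FPKM. LOC106353143 had 0.56, 0.63 and 0.41 FPKM in control flowers and 2.37, 2.44 and 2.38 FPKM in drought flowers, with a CV of 1.58% and a log2FC of 1.15 (SE 0.13, limma adjusted p = 0.000814). It was not called after median-ratio scaling. LOC106348956 (CV 1.88%) and BNAA03G32230D (CV 1.89%) stood at 2.17 to 2.25 FPKM and 1.37 to 1.42 FPKM in drought flowers, and at 0.89 to 0.95 FPKM and 0.24 to 0.66 FPKM in control flowers. Both missed the fold threshold, with log2FC values of 0.75 and 0.76. At the other end, 13 genes were above 0 in 1 of the 6 libraries only, with 2.04 to 59.5 FPKM there. They were found in replicates 1 and 2 of the drought group (5 and 3 genes) and in replicates 2 and 3 of the control (4 and 1 genes). The list holds no gene of 3 FPKM or more in replicate 1 of the control, which limits what could be found there. Of the 13 genes, LOC106345942 had 20.7 FPKM in replicate 2 of the drought group, and LOC106346081 and LOC106350416 had 9.70 and 8.03 FPKM in its replicate 1. The value of every other library of these genes was 0.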

How the data were processed

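RNA-seq libraries of G59 flowers, 3 under control and 3 under drought, were analysed. The authors filtered reads with NGS QC toolkit 2.2.3, mapped them to the Darmor-bzh genome (aligner not given in the sources used here) and quantified them in FPKM by Cuffquant and Cuffnorm (Cufflinks 2.0.0). Deposited FPKM have 2 decimals for 998 genes. The labels mention 4 cDNA libraries but list 12 samples, used as separate libraries. A further table holds the G67 values again, with the authors' means and fold change, and was not used.

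No read counts are listed. Of 310 low values compared with the lowest of their gene and group, 71 (22.9%) lay within 0.15 of a whole multiple, so depth is unknown and no count model was used.

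Drought and control of G59 were compared by limma 3.58.1 (R 4.3.3) on log2(FPKM + 1) without a filter, covariate or trend and with Benjamini-Hochberg adjustment over 998 genes. G67 was left out of the fit because its rows may hold other genes. The call required an adjusted p no higher than 0.05 with a log2 fold change of 1 or more in either direction, a scale that understates changes of low genes. Sums, medians and numbers at 0 per library were tested by exact two-sided permutation (20 arrangements). Folds are ratios of mean FPKM. Python 3.11.15, numpy 2.4.6, pandas 2.3.3 and matplotlib 3.10.9 served for the rest. The fit was tested on simulated data.

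Of 998 identifiers, 877 matched RefSeq (assembly Da-Ae, used for names only), 9 of them with a name. Of the pathway lists set up by words, only that of abscisic acid and dehydration matched a row (ERD10). No sequence is shown, since no sequence table was used here.

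Members, lists and tests were chosen with earlier results of these data known. The genes named are the candidate genes listed, the 8 largest rises and 6 largest falls among called genes without overlap, the 6 highest at 0 under control, the 4 highest at 0 under drought, the 4 highest in each group, the 3 highest and 3 lowest CVs at a drought mean of at least 1 FPKM, and called list members (ERD10). The other genes with a name in RefSeq were added after their values were seen. Genes above 0 in a single drought library share the highest CV, so the 3 named stand for these. Alternatives tried were a pseudocount of 0.1 or 0.01, genes with means from 1 FPKM up, median-ratio scaling (609 genes above 0 in all 6 libraries), quantile normalization, a fit of 4 groups, a trend, the replicate number as a block, other thresholds and leaving out each library. Leaving out equal rows and rows of a single library was added after seeing the data.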

Additional observations from a re-analysis of the deposited data

How the results depend on the processing

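There were 542 calls, 474 higher and 68 lower. Alternatives gave 932 (752 higher, 180 lower) with a pseudocount of 0.1 and 942 (755 higher, 187 lower) with 0.01, 962 (769 higher, 193 lower) by the adjusted p alone (no higher than 0.05), 327 (153 higher, 174 lower) with median-ratio scaling and 308 (122 higher, 186 lower) after quantile normalization. With a mean of at least 1 FPKM, 39 genes were called as lower, fewer genes being tested. A fit of 4 groups gave 539 calls, a trend 543, an adjusted p of at most 0.01 490, and leaving out equal rows or rows of a single library, chosen after seeing the data, 527 and 543. Leaving out 1 library at a time gave 475 to 580 calls (406 to 521 higher, 59 to 73 lower). The ratio of the summed FPKM, 4.77, was then 4.39 to 5.35, and 2.88 without the 20 highest genes. The ratio of the medians, 3.43, was 3.15 to 3.97, that of the number of genes at 0, 0.194, was 0.188 to 0.201, and 229 to 242 genes were at 0 without 1 control library.

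With the replicate number as a block, 542 genes were called. Deviations of same-numbered libraries from their group mean had correlations of 0.010, -0.008 and -0.132 across genes. No control library correlated best with the drought library of its own number. With so few libraries per group, these values cannot tell whether same-numbered libraries came from the same repeat of the experiment.

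Scaling turned the direction of 4 named genes, none of them called in either direction before. With median-ratio scaling and quantile normalization, LOC106348956 had log2 fold changes of -0.12 and -0.16, MyAP1 -0.41 and -0.35, and BNF5H1 -0.15 and -0.11. BNAA03G32230D had -0.12 after quantile normalization. As deposited, the drought means of these 4 genes were 1.95 to 3.26 times their control means. Median-ratio scaling divided drought libraries by 1.43 to 1.89 and control libraries by 0.567 to 0.630, so modest rises can turn by the scaling itself. Why the listed genes differ in scale between the groups was not tested. Genes listed near 0 are limited by the 2 decimals of the values and by the unknown depth.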
